A study of Mus musculus with 6 samples.

Results

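The Ly6 genes examined here are 7 neighbouring genes of mouse chromosome 15, chosen by name: *Ly6g*, *Ly6c1*, *Ly6c2*, *Ly6a*, *Ly6d*, *Ly6e* and *Ly6i*. All 7 were found among the 29097 genes of the deposited table, and all 7 were among the 10440 genes tested, which averaged 1 or more FPKM (fragments per kilobase of gene, scaled to the number of counted reads) over the libraries. Their RNA was measured by Smart-seq2 in neutrophils sorted from peripheral blood (PB) as CD45+CD11b+Ly6G+ cells. The donors were male wild type C57BL/6 mice aged 8 weeks. In the ligated group, silk was tied around molars for 14 d to give ligature-induced periodontitis (LIP, labelled Lig), and the controls (Ctrl) carried no ligature over the same time. Each group had 3 libraries and each library pooled the cells of 5 mice, so the spread between libraries is a spread between pools, and mice within a pool cannot be told apart. The comparison addresses what gum inflammation changes in blood neutrophils, and for these genes whether the RNA of the sorting marker and of its relatives moved together.

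Ly6 proteins are small, usually held on the outer face of the plasma membrane by a glycosylphosphatidylinositol (GPI) anchor, and share the three-finger fold of the Ly6/uPAR domain. Ly6G is the surface antigen by which mouse neutrophils are recognised and sorted, Ly6C is the antigen by which classical blood monocytes are told from others, and Sca-1, the product of *Ly6a*, marks haematopoietic stem cells and many lymphocytes and is induced by interferon. *Ly6d* is known as a B lineage marker, *Ly6e* is an interferon-induced gene of wide expression that restricts or aids certain viruses, and *Ly6i* is a little studied relative reported in myeloid cells.

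The copies resemble each other, which matters for counting reads. Among the longest coding transcripts, *Ly6c1* and *Ly6c2* were 97.57% identical over 822 aligned bases. *Ly6g* was 81.81% to 84.25% identical to *Ly6c1*, *Ly6c2*, *Ly6a* and *Ly6i*, whereas *Ly6d* and *Ly6e* aligned to any other member over at most 105 bases. Of all 150-base windows of the coding transcripts, the length of a read, 39 of the 717 of *Ly6c2* and 39 of the 1706 of *Ly6c1* were found in both genes, and the other 5 members shared 0 windows with another gene. With windows of 75 bases, the shared part was 20.707% for *Ly6c2*, 19.048% for *Ly6c1*, 6.331% for *Ly6a* and 0.519% for *Ly6i*, and 0 windows of *Ly6g*, *Ly6d* and *Ly6e* were shared. How reads that match several genes were counted is not given in the sources used here, so the values of *Ly6c1* and *Ly6c2* are uncertain to that extent. None of the 7 genes overlaps another gene of the table.

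The likeness extends into the sequence before the genes. Sequence upstream of the start was matched in RefSeq (GRCm38.p6) for 3 of the members, and these are shown because the others had no matched entry. In the main fit described below, the RNA of *Ly6g* and *Ly6c2* was higher and that of *Ly6c1* lower in LIP. The first 2 calls depended on scaling, and that of *Ly6c1* held in 2 of 6 fits with 1 library left out. They are chr15:75155011-75155239 on the plus strand for *Ly6g*, chr15:75048838-75049087 on the minus strand for *Ly6c1* and chr15:75111972-75112221 on the minus strand for *Ly6c2*, each 5′ to 3′. The sequences of *Ly6c1* and *Ly6c2* end just before the RefSeq start. That of *Ly6g* ends just before the annotated gene start at 75155240, which lies upstream of its RefSeq start. Capitals mark bases that lie in a run of at least 10 bases found in all 3 sequences, and such runs may overlap.
Ly6g: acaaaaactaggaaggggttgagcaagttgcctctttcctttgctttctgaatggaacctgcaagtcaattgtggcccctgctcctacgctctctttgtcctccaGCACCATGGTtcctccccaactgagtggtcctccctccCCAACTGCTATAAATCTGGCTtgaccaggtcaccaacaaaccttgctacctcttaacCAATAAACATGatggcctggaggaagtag
Ly6c1: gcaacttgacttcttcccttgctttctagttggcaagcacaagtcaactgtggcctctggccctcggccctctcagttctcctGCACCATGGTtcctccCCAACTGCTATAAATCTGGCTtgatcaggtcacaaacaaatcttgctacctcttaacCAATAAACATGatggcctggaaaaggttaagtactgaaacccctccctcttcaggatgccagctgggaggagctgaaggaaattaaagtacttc
Ly6c2: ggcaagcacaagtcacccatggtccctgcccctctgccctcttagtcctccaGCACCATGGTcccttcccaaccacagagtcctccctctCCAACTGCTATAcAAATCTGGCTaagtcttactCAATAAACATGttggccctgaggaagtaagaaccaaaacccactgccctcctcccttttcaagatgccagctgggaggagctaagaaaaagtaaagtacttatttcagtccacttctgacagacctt

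The capitals cover 42 bases in *Ly6g*, 42 in *Ly6c1* and 43 in *Ly6c2*. The longest stretch of capitals, 21 bases that hold the letters TATAAA, is in *Ly6g* and *Ly6c1* but not in *Ly6c2*, where the runs of 12 and 10 bases that overlap to form it stand apart. In local alignment, *Ly6g* and *Ly6c1* were 84.75% identical over 177 bases, *Ly6g* and *Ly6c2* were 81.55% identical over 103 bases, and *Ly6c1* and *Ly6c2* were 76.28% identical over 215 bases. Both strands were searched for 3 short motifs, chosen after the sequences were seen. The core of the interferon-stimulated response element, GAAANNGAAA, was in 0 of the 3 sequences and in 3.038% of the 27025 upstream sequences of all genes. The gamma-activated site, TTCNNNGAA, was in 0 of the 3 and in 7.179% of all. The core bound by PU.1, GAGGAA, was in 23.134% of all. It had 2 matches for *Ly6g* (115 and 10 bases before the annotated gene start). There was 1 for *Ly6c1* (158 bases before the RefSeq start) and 1 for *Ly6c2* (108 bases before it). These matches describe letters and were not tested against the expression values.

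The libraries differed by group in ways that touch every value. Total counts lay between 52186555 and 57262379. Haemoglobin genes took 14.6% to 15.02% of the counts in Ctrl libraries and 1.55% to 1.61% in LIP libraries, and the 21 genes of a mature neutrophil reference list took 1.94% to 2.13% and 5.59% to 5.95%. In bulk samples, fewer cells of a type and less RNA per cell cannot be told apart. Of the genes tested, 5601 (53.6%) passed an adjusted p of 0.05 in edgeR's quasi-likelihood test, 2766 (26.5%) higher and 2835 (27.2%) lower in LIP, and in 6897 (66.1%) the FPKM values of the groups did not overlap. These calls rest on TMM scaling, with which the median gene had a log2 fold change of -0.09. Scaling on library totals gave 1919 higher and 4146 lower genes with a median of -0.42, totals without haemoglobin genes gave 1460 and 5120 with a median of -0.62, limma on log2(FPKM + 1) gave 2010 and 4249 with a median of -0.31, and scaling on the neutrophil reference list gave 58 and 9162 with a median of -1.90.

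Against that background, the Ly6 genes divided. *Ly6g*, *Ly6c2* and *Ly6i* were higher in LIP (each turned below 0 when scaled on the neutrophil reference list), *Ly6d*, *Ly6a* and *Ly6c1* were lower, and *Ly6e* did not pass the test. Thus 3 of 7 were called higher where 26.5% of all genes were, and 3 of 7 lower where 27.2% were, with a median log2 fold change of -0.19 beside -0.09 over all genes. FPKM values did not overlap between groups for 6 of the 7, beside 66.1% of all genes, the exception being *Ly6i*. Log2 fold changes below are from the TMM-scaled counts, and FPKM levels are scaled on library totals, so a ratio of FPKM means is lower than the fold from counts for each gene.

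**Figure D1:**
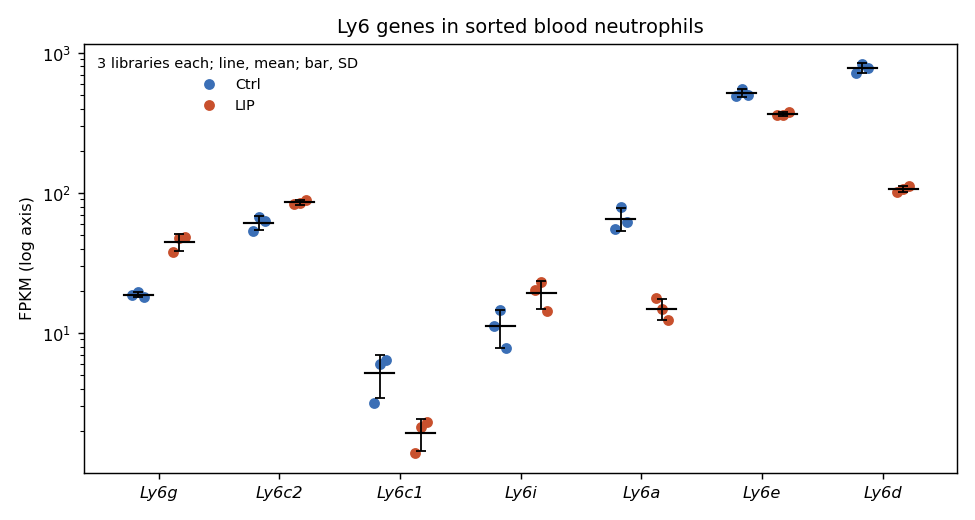
FPKM of the 7 Ly6 genes (log axis) in the 3 Ctrl and 3 LIP libraries of sorted blood neutrophils, with 1 point per library, a line at the mean and a bar for the SD. Ly6d fell from a mean of 782 to 107 FPKM and Ly6g rose from 18.8 to 44.7, and the values of Ly6i overlap between groups.

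*Ly6g* (ENSMUSG00000022582, chr15:75155240-75159126, plus strand, GRCm38) codes for the antigen used for the sort. Its FPKM was 18.7, 19.5 and 18.2 in the Ctrl libraries and 37.8, 47.9 and 48.3 in the LIP libraries, from 972 to 1087 reads and from 2160 to 2752 reads. The lowest LIP library lay well above the highest Ctrl library. The mean rose from 18.8 ± 0.692 to 44.7 ± 5.95 FPKM (SD, n = 3 each), and the log2 fold change was 1.55 (SE 0.169, edgeR adjusted p = 2.95826e-05). When the libraries were scaled on the neutrophil reference list instead, the value was -0.25 (adjusted p = 0.217) and was not called in either direction.

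The other genes of the gate moved the same way. *Itgam*, which codes for CD11b, had 27.6, 14.8 and 27.5 FPKM in Ctrl and 65.0, 60.1 and 63.8 in LIP libraries (log2 fold change 1.74, SE 0.201, edgeR adjusted p = 4.39e-05). *Ptprc*, which codes for CD45, had 71.2, 44.8 and 57.9 FPKM in Ctrl and 110.4, 97.4 and 110.7 in LIP libraries (1.18, SE 0.137, edgeR adjusted p = 4.68e-05). Ctrl replicate 2 was the lowest Ctrl library for both, and each of these 2 genes overlaps another listed gene, so some of their reads are uncertain. Because a ratio within a library does not depend on its scaling, *Ly6g* was also set against both. The log2 ratio of *Ly6g* to *Itgam* was -0.25 ± 0.564 in Ctrl and -0.50 ± 0.244 in LIP (SD), a difference of -0.25 (SE 0.355, two-sided exact permutation p = 0.7), and it was 0.077 without Ctrl replicate 2. The log2 ratio of *Ly6g* to *Ptprc* was -1.60 ± 0.371 and -1.26 ± 0.266, a difference of 0.34 (SE 0.264, exact permutation p = 0.2). In both ratios the groups overlapped, and the width of these errors leaves changes of either sign possible. In total, 9 ratios are described, with 0.1 as the smallest p that 3 libraries against 3 can give, and after Benjamini-Hochberg adjustment the lowest value was 0.15.

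*Ly6c2* (ENSMUSG00000022584, chr15:75108158-75111970, minus strand) and *Ly6c1* (ENSMUSG00000079018, chr15:75044018-75048830, minus strand) code for the near-identical Ly6C antigens. *Ly6c2* had 53.8, 67.6 and 63.0 FPKM in Ctrl and 83.4, 84.4 and 89.6 FPKM in LIP libraries. All LIP values lay above all Ctrl values, and the mean rose from 61.4 ± 7.03 to 85.8 ± 3.30 FPKM (log2 fold change 0.79, SE 0.117, edgeR adjusted p = 0.000267). *Ly6c1* was far less abundant, at 3.19, 5.99 and 6.40 FPKM in Ctrl and 1.38, 2.13 and 2.31 FPKM in LIP libraries. These groups did not overlap either, but in the other direction, with means of 5.19 ± 1.74 and 1.94 ± 0.491 FPKM (log2 fold change -1.12, SE 0.381, edgeR adjusted p = 0.0300). The call for *Ly6c1* held in 2 of 6 fits with 1 library left out, and was lost without Ctrl replicate 2 (adjusted p = 0.0947), Ctrl replicate 3 (0.107), LIP replicate 1 (0.0705) or LIP replicate 2 (0.0594).

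The balance of the 2 Ly6C genes shifted toward *Ly6c2*. The log2 ratio of *Ly6c2* to *Ly6c1* was 4.08, 3.50 and 3.30 in Ctrl and 5.92, 5.31 and 5.28 in LIP libraries. The lowest LIP ratio lay above the highest Ctrl ratio, with a difference of 1.88 (SE 0.312, exact permutation p = 0.1, the smallest possible). Where reads of one copy were given to the other, this ratio would be measured with that error, which the table does not allow to be estimated.

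*Ly6i* (ENSMUSG00000022586, chr15:74979534-74983430, minus strand) had 11.2, 14.6 and 7.76 FPKM in Ctrl and 20.2, 23.0 and 14.5 FPKM in LIP libraries. LIP replicate 3 lay just below Ctrl replicate 2, so the groups overlapped in FPKM, while the TMM-scaled counts did not overlap. The mean rose from 11.2 ± 3.42 to 19.2 ± 4.34 FPKM (log2 fold change 1.08, SE 0.279, edgeR adjusted p = 0.00786). With coefficients of variation of 30.5% in Ctrl and 22.6% in LIP, *Ly6i* and *Ly6c1* (33.6% and 25.3%) varied most between libraries of a group, whereas *Ly6d* (7.51% and 4.83%) and *Ly6e* (6.44% and 3.16%) varied little.

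*Ly6d* (ENSMUSG00000034634, chr15:74762056-74763620, minus strand) had the highest FPKM of the 7 Ly6 genes in the Ctrl libraries. It had 721, 838 and 787 FPKM there, and 102, 106 and 112 FPKM in LIP libraries. No library came near the other group. The mean fell from 782 ± 58.7 to 107 ± 5.16 FPKM, 7.32-fold by FPKM, and the log2 fold change from TMM-scaled counts was -2.57 (SE 0.108, edgeR adjusted p = 8.50274e-08), with 2.62% of the tested genes below it. *Ly6a* (ENSMUSG00000075602, chr15:74994877-74998031, minus strand) had 55.5, 79.0 and 61.7 FPKM in Ctrl and 17.7, 14.8 and 12.4 FPKM in LIP libraries. Its groups were likewise apart, with means of 65.4 ± 12.2 and 14.96 ± 2.67 FPKM (log2 fold change -1.82, SE 0.194, edgeR adjusted p = 2.5753e-05). *Ly6d* and *Ly6a* were called lower under all 17 alternative settings tried.

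*Ly6e* (ENSMUSG00000022587, chr15:74955051-74959905, plus strand) had 495, 555 and 501 FPKM in Ctrl and 362, 359 and 380 FPKM in LIP libraries. By FPKM the groups did not overlap, with means of 517 ± 33.3 and 367 ± 11.6. After TMM scaling the log2 fold change was -0.19 (SE 0.0798, 95% interval -0.36 to -0.01, edgeR adjusted p = 0.0686), which does not show that its level was the same in both groups. Relative to the median of all genes, the value was -0.09 with TMM factors. Another library scaling shifts every gene and that median by nearly the same amount. The distance of -0.09 therefore recurs by construction with the other scalings and is no separate evidence. Its call therefore moved with the scaling, and with library totals the value was -0.51 (adjusted p = 0.000285).

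**Figure D2:**
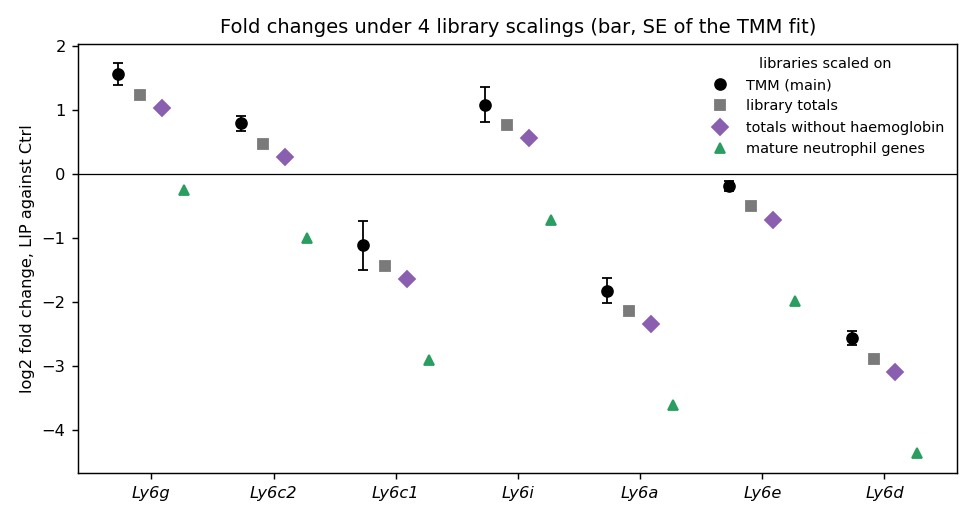
Log2 fold changes of the 7 Ly6 genes, LIP against Ctrl, under 4 library scalings, with 1 point per gene and scaling and a bar for the SE of the TMM fit. Scaling on the neutrophil reference list moves every gene down, and takes Ly6g from 1.55 to -0.25, Ly6c2 from 0.79 to -1.01 and Ly6i from 1.08 to -0.72. The order of the 7 genes is kept by construction, as a scaling shifts all genes nearly alike.

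A change of library scaling shifts every gene by nearly the same amount, so the 7 genes moved together and kept their order by construction. On the neutrophil-reference scale, *Ly6c2* was -1.01 (adjusted p = 1.78e-05) and *Ly6i* was -0.72 (adjusted p = 0.0356), so that both were then lower in LIP, while relative to the median of all genes *Ly6g* was at 1.65, *Ly6i* at 1.17 and *Ly6c2* at 0.89. With totals without haemoglobin genes, *Ly6c2* (0.26, adjusted p = 0.0685) and *Ly6i* (0.55, adjusted p = 0.107) were no longer called higher, and *Ly6g* was (1.02). Within a library, the log2 ratio to *Ly6g* changed from 5.38 to 1.27 for *Ly6d*, a difference of -4.11 (SE 0.102). The corresponding difference was -3.37 (SE 0.288) for *Ly6a*, -2.63 (SE 0.340) for *Ly6c1*, -1.73 (SE 0.112) for *Ly6e* and -0.75 (SE 0.133) for *Ly6c2*, each with no overlap between groups and with an exact permutation p of 0.1, the smallest possible. *Ly6i* overlapped in this ratio, with a difference of -0.44 (SE 0.348, exact permutation p = 0.3). The ratios of *Ly6d*, *Ly6c1*, *Ly6c2* and *Ly6i* to *Ly6g* were added after the data were seen.

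The members can also be ranked within a group by the deposited FPKM, and the order depends on the gene lengths used for it. *Ly6e* and *Ly6c2* are also annotated with retained-intron transcripts. In Ctrl replicate 1, *Ly6e* had 107404 reads for a longest coding transcript of 2281 bases, and *Ly6d* 30768 for 744 bases. There *Ly6c2* had 8460 reads for 822 bases and *Ly6a* 3840 for 955 bases. Per base of coding transcript, both pairs would stand in the reverse order. By FPKM, the order in Ctrl libraries was *Ly6d*, *Ly6e*, *Ly6a*, *Ly6c2*, *Ly6g*, *Ly6i* and *Ly6c1*, in which *Ly6a* and *Ly6c2* overlapped and every other pair of neighbours did not. In LIP libraries the order was *Ly6e*, *Ly6d*, *Ly6c2*, *Ly6g*, *Ly6i*, *Ly6a* and *Ly6c1*, in which *Ly6i* and *Ly6a* overlapped. In FPKM, *Ly6a* thus passed from just above *Ly6c2* to below *Ly6i*. The summed FPKM of the 7 genes lay between 1358 and 1580 in Ctrl and between 625 and 660 in LIP libraries. *Ly6d* gave 53.5% ± 0.811 of that sum in Ctrl and 16.7% ± 0.341 in LIP, and *Ly6e* gave 35.4% ± 0.912 and 57.3% ± 0.878. *Ly6c2* went from 4.20% ± 0.210 to 13.4% ± 0.167, *Ly6g* from 1.29% ± 0.0760 to 6.96% ± 0.796 and *Ly6i* from 0.763% ± 0.201 to 3.01% ± 0.733. The gene that defines the sorted cells was therefore a small part of the summed FPKM of the 7 genes in either group.

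**Figure D3:**
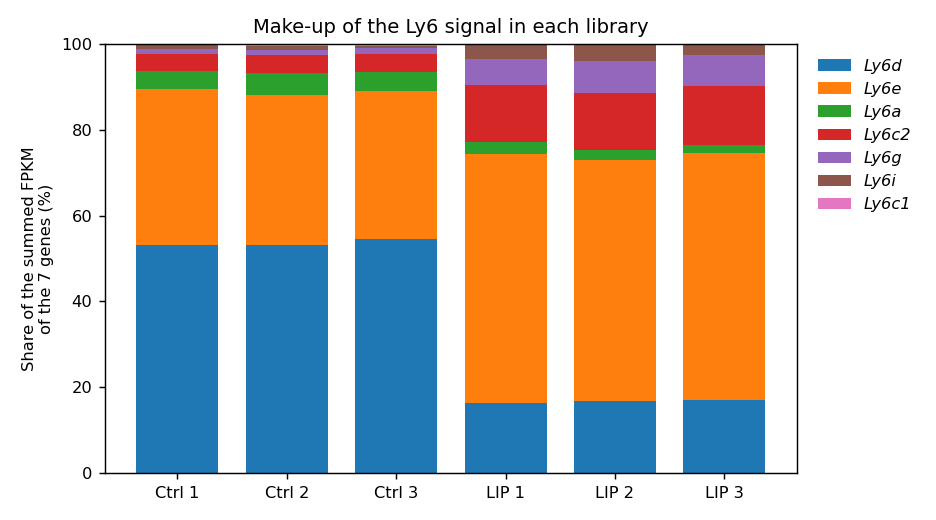
Stacked bars of the share (%) that each of the 7 genes had of their summed FPKM in each of the 6 libraries. Ly6d held the largest share in the 3 Ctrl libraries (mean 53.5%) and Ly6e in the 3 LIP libraries (mean 57.3%), and Ly6c1, at about 0.3%, is too thin to see.

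Markers of other cells moved with the groups, and the values beside the Ly6 genes were as follows. For B cells, of which *Ly6d* is a marker, 14 of 14 marker genes fell (beside 27.2% of all genes). Their log2 fold changes ran from -2.98 to -2.29, around the -2.57 of *Ly6d*. Their summed FPKM was 2485 to 2740 in Ctrl and 313 to 348 in LIP libraries. *Cd79a*, a chain of the B cell receptor complex, fell from 1163 ± 75.4 to 152 ± 15.3 FPKM, and its partner *Cd79b* from 406 ± 65.7 to 53.6 ± 5.75. For T cells, which can carry Sca-1, 14 of 14 tested markers fell (beside 27.2% of all genes), with a median log2 fold change of -2.34. Their range, from -3.38 to -1.32, held the values of both *Ly6d* and *Ly6a*. The summed FPKM of the T cell markers was 277 to 292 in Ctrl and 46.5 to 60.4 in LIP libraries. *Cd8b1*, a coreceptor chain, was at -2.92 and *Lck*, the kinase of the T cell receptor, at -1.32. For plasmacytoid dendritic cells, 3 of 10 markers could be tested, with 2 lower (beside 27.2% of all genes) and 1 higher (beside 26.5%). *Spib*, also a B lineage factor, fell by 2.53 on the log2 scale and *Runx2* rose by 1.16. The summed FPKM of the 10 was 67.1 to 83.4 in Ctrl and 14.1 to 20.8 in LIP libraries, where 1 marker was at 0 throughout.

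For monocytes, in which *Ly6c2* is high, 10 of 14 markers rose (beside 26.5% of all genes), 1 fell and 3 did not pass. When scaled on the neutrophil reference list 11 were lower, beside 87.8% of all genes. Their summed FPKM was 863 to 897 in Ctrl and 912 to 990 in LIP libraries. With TMM scaling, the median of 0.96 lay near the 0.79 of *Ly6c2*. The most abundant, *Ctss*, a lysosomal protease, was at 0.16 (adjusted p = 0.235), the nuclear receptor gene *Nr4a1* rose by 0.57, and the 1 that fell was *Irf8*, a factor of monocyte and dendritic cell fate, named after its value was seen (-1.15). The 21 mature neutrophil genes all rose with TMM scaling (beside 26.5% of all genes), with the alarmin subunits *S100a8* at 1.95 and *S100a9* at 2.03. With library totals 20 rose (beside 18.4%), and with totals without haemoglobin genes also 20 (beside 14.0%). Their summed FPKM went from 17900 to 21488 in Ctrl to 57537 to 62744 in LIP. With TMM scaling their median was 1.88 and their range 0.39 to 2.51. *Ly6g*, at 1.55, lay inside that range. It also lay inside the ranges of the monocyte markers (-1.15 to 1.72) and the interferon-induced genes (-0.21 to 1.88). Scaled on the neutrophil reference list itself, *Ly6g* was not called and *Ly6c2* and *Ly6i* were called lower, while *Ly6d* was at -4.36 and *Ly6a* at -3.61.

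Endothelial and stem cell markers, relevant to *Ly6c1* and *Ly6a*, were low. Of 11 endothelial markers 2 could be tested, *Esam* at 0.96 and *Pecam1* at -0.41 (adjusted p = 0.104), both of which other blood cells also express, and the summed FPKM was 14.7 to 19.6 in Ctrl and 12.7 to 16.5 in LIP libraries, with 1 marker at 0 in all LIP libraries. Of 10 stem and progenitor markers 3 could be tested. With TMM scaling 2 rose (beside 26.5% of all genes), among them *Gata2*, a transcription factor gene (0.94), and 1, lower in LIP, did not pass. With totals without haemoglobin genes 1 was higher and 1 lower (beside 14.0% and 49.0% of all genes). When scaled on the neutrophil reference list 2 were lower, beside 87.8% of all genes. The summed FPKM of the 10 was 12.1 to 18.4 in Ctrl and 19.4 to 27.6 in LIP libraries, with 2 markers at 0 in all LIP libraries. NK cell markers, of which 4 of 8 rose (beside 26.5% of all genes) and 4 did not pass, had summed FPKM of 244 to 292 and 248 to 272. Among them *Gzma* was at 0.20 and *Prf1* at 0.17, neither called. With totals without haemoglobin genes 2 NK markers were lower (beside 49.0% of all genes), and with the neutrophil reference 8 (beside 87.8%). All 10 tested erythroid markers fell (beside 27.2% of all genes), with a median of -2.96, *Hba-a1* at -2.80 and *Hba-a2* at -2.89. Their range, from -3.99 to -2.04, also held the -2.57 of *Ly6d*. The summed FPKM of the erythroid markers was 180811 to 187043 in Ctrl and 19507 to 20218 in LIP libraries. The part of these cells in the values of the Ly6 genes was not tested.

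**Figure D4:**
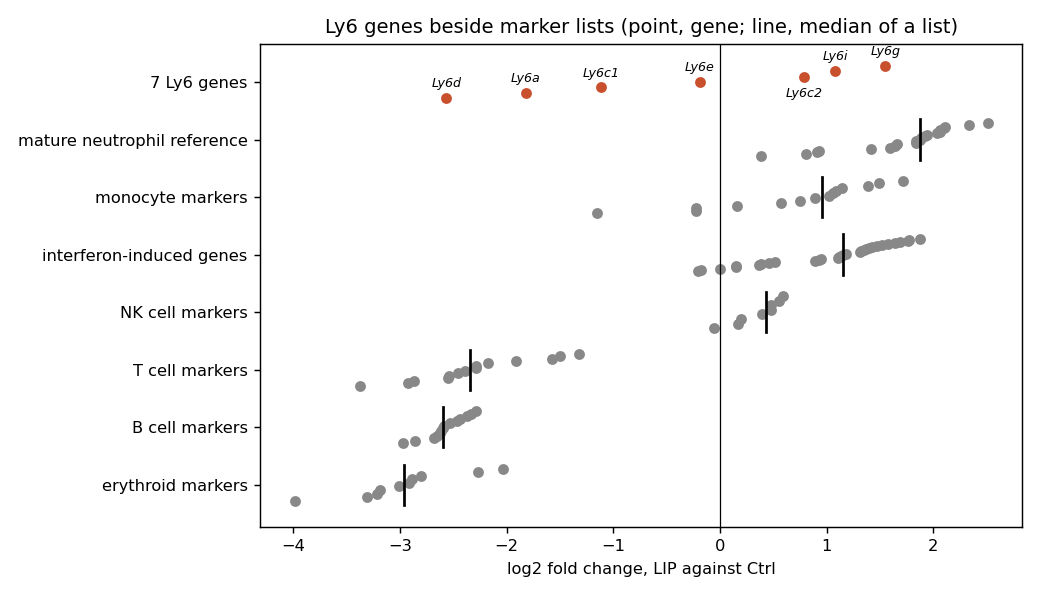
Log2 fold changes, LIP against Ctrl, of the 7 Ly6 genes (top row, named) and of the tested genes of 7 lists, with 1 point per gene and a line at the median of each list. Ly6d (-2.57) sits among the B cell markers, Ly6g (1.55) within the range of the mature neutrophil reference, and Ly6a (-1.82) outside the range of the interferon-induced genes.

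*Ly6a* and *Ly6e* are known as genes of the interferon response, and neither was in the list of interferon-induced genes set beside them. Of 31 tested genes of that list, 24 rose (beside 26.5% of all genes) and 7 did not pass. When scaled on the neutrophil reference list 21 were lower, beside 87.8% of all genes. With TMM scaling, the list had a median of 1.16 and a range from -0.21 to 1.88. The highest were *Oas3*, a synthetase of the RNase L pathway, at 1.88 and *Rtp4* at 1.77, and the lowest called was the antiviral *Rsad2* at 0.36. The -1.82 of *Ly6a* lay outside that range and the -0.19 of *Ly6e* lay at its lower end.

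Other genes of the Ly6/uPAR superfamily mostly rose with TMM scaling, and none was called higher when scaled on the neutrophil reference list (edgeR, 0 of 9 also at an unadjusted p under 0.05, 5 lower). At that scaling 0.556% of all genes were called higher and 87.8% lower. Of 36 listed, 19 were in the table and 9 could be tested, of which 7 rose (beside 26.5% of all genes), 1 fell and 1 did not pass, with a median log2 fold change of 1.06. *Plaur*, the urokinase receptor gene, was the most abundant and rose from 360 ± 29.8 to 509 ± 42.1 FPKM (0.81, SE 0.0907). *Cd177*, a neutrophil surface antigen, rose from 44.2 ± 6.95 to 94.3 ± 7.75 FPKM (1.40, SE 0.131). The others that rose were *Lypd6b* (2.07), *Ly6g6c* (1.23), *Ly6a2* (1.04), and the complement regulators *Cd59b* (1.06, with overlapping FPKM) and *Cd59a* (1.02). *Ly6g6f* was at 1.08 (SE 0.443, edgeR adjusted p = 0.0608). *Ly6k*, the neighbour of *Ly6d*, fell from 5.77 ± 0.760 to 0.503 ± 0.201 FPKM (-3.15, SE 0.453, edgeR adjusted p = 0.00021). *Lynx1*, on the other side of *Ly6d* and below the filter at a mean of 0.878 FPKM, had 611, 306 and 398 reads in Ctrl and 11, 61 and 38 in LIP libraries, and was named after its values were seen.

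Along the chromosome, the members lie within 397 kb, and the genes around them did not move as a block. In a window of 527 kb around the members, 31 genes were listed and 14 tested, 7 of them the members. With TMM scaling 8 rose (beside 26.5% of all genes), 4 fell (beside 27.2%) and 2 did not pass. At one end, *Ly6d* and *Ly6k*, 34.8 kb apart, both fell. In the middle, *Ly6i* (217.5 kb from *Ly6d*) rose and *Ly6a* (232.8 kb) fell. At the other end, *Ly6c1* (282.0 kb) fell while *Ly6c2* (346.1 kb), *Ly6a2* (369.3 kb) and *Ly6g* (393.2 kb) rose. Between *Ly6k* and *Ly6e*, the long noncoding RNA *Gm39556* rose by 1.76 (SE 0.181, edgeR adjusted p = 1.93e-05). The pseudogenes *Gm29126* (2.30) and *Gm8000* (1.49) and the transcript still to be experimentally checked *Gm37042* (1.56) also rose from low counts, and the pseudogene *Gm5960* was at 1.31 (edgeR adjusted p = 0.0767). These 5 were named after their values were seen, and reads of pseudogenes may belong to their parent genes.

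**Figure D5:**
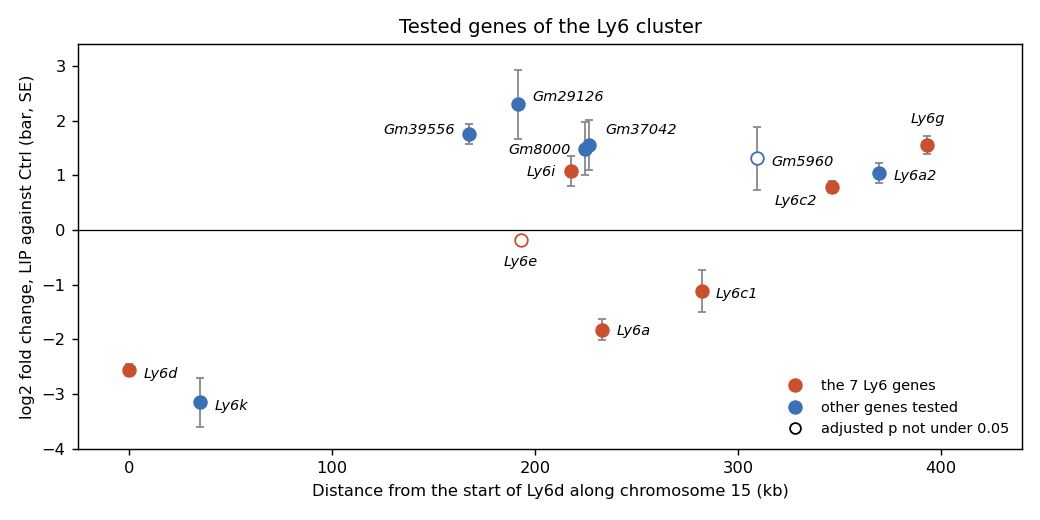
Log2 fold change (bar, SE) of the 14 tested genes of the Ly6 cluster against distance in kb from the start of Ly6d on chromosome 15, with the 7 members in orange, other genes in blue and open points where the adjusted p was not under 0.05. Ly6d and Ly6k fell at the left end, Ly6c2, Ly6a2 and Ly6g rose at the right end. Between them, from left to right, 5 genes called higher come first, followed by Ly6a and Ly6c1, which fell.

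The machinery that attaches GPI anchors did not move together. Of 30 genes listed, 29 were in the table and 21 could be tested. Of these, 3 rose (beside 26.5% of all genes), 5 fell (beside 27.2%) and 13 did not pass, with a median of -0.16 beside -0.09 over all genes. With library totals 1 rose and 8 fell, beside 18.4% and 39.7% of all genes. *Pgap1*, which removes an acyl chain from the inositol of the anchor, fell from 2.70 ± 0.352 to 0.250 ± 0.0607 FPKM (log2 fold change -3.11, SE 0.239). *Pigp*, a subunit of the enzyme of the first step, fell by 1.70 on the log2 scale. *Pigb*, a mannosyltransferase, rose by 1.70 from 0.656 ± 0.193 FPKM, and *Pgap2*, which acts in remodelling the lipid, rose by 0.78.

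Genes with a pattern like each member were sought among 3381 genes that averaged 10 FPKM or more, by Pearson's r of log2(CPM + 1) over the 6 libraries, which all share the group difference. For *Ly6g* the closest were *Cd300a* (0.998), *Tpm4* (0.998) and *Rgs18* (0.997), among 1253 genes with r above 0.9. For *Ly6c2* they were *Atp6v1e1*, *Pf4* and *Gm12854* (1070 above 0.9), and for *Ly6i* *Pigx*, *Tm2d2* and *Trappc1* (219 above 0.9). For *Ly6d* they were *H2-Eb1*, an MHC class II gene, *Iglj3*, an immunoglobulin segment, and *mt-Nd6* (779 above 0.9), and for *Ly6a* *Ctcf*, *Mbd3* and *Ltb* (754 above 0.9). *Ly6c1* was closest to *Atp5h*, *Nme2* and *Hmgb1* (102 above 0.9), and *Ly6e* to *Igkv1-88*, *Gm13370* and *Skp1a* (115 above 0.9). Among the members, r was 0.96 between *Ly6g* and *Ly6c2*, 0.97 between *Ly6a* and *Ly6d*, and -0.98 between *Ly6g* and *Ly6d*. With 3 libraries in each of 2 groups, such values carry the difference between the groups, and they are given as a description.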

How the data were processed

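Smart-seq2 libraries of sorted blood neutrophils from 3 Ctrl and 3 LIP pools were analysed, grouped by their labels. BM libraries and the multiome data of the study were not analysed here. Raw counts were deposited for each gene, with no normalization by the authors, from paired-end reads of 150 bases that carry no molecular identifiers, so PCR copies are counted. The authors also deposited FPKM values, in which each count is divided by the length of the gene and the total of the library. The submitters' processing notes name cutadapt 1.9, FastQC and GRCm38, and the aligner, the counting tool and the use of strand are not given in the sources used here.

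Genes averaging 1 FPKM or more were tested on the counts with edgeR 4.0.16 in R 4.3.3, by its quasi-likelihood test with TMM factors and no replicate block, with Benjamini-Hochberg adjustment over 10440 genes. The SE is the absolute log2 fold change over the root of F. Within-library log2 FPKM ratios were compared by two-sided exact permutation tests. Alternatives were other scalings, DESeq2 1.42.0, limma 3.58.1 on log2(FPKM + 1) and log2(FPKM + 0.1), other filters, a replicate block and leaving out each library. Of 50 gene names on several rows, the row with the higher mean was used. The chi-square per gene between replicates was 51.9 to 126, far above sampling noise for each pair, and the common biological coefficient of variation was 0.265. Each library stands for a pool of mice, and edgeR p-values set the difference between groups against the spread between pools. Exact permutation p-values come from regrouping the libraries and cannot fall below 0.1. Windows and identities came from GENCODE coding transcripts, and sequences from RefSeq (Biopython 1.88). Other members had no matched upstream entry.

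The members and all gene lists were chosen with earlier results of these data known. Beyond the members, the genes named were *Itgam* and *Ptprc*, other Ly6/uPAR genes averaging 1 FPKM or more, the 2 highest and 2 lowest called genes of the GPI and interferon lists, the 2 most abundant tested genes of each marker list and the 3 genes most correlated with each member, and the text marks those named after their values were seen. Values of 2 genes that this rule would name are not reported here.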

Additional observations from a re-analysis of the deposited data

How the results depend on the processing

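*Ly6d* and *Ly6a* were lower in LIP and *Ly6g* was higher under every alternative tried, except that scaling on the neutrophil reference list turned *Ly6g* to -0.25 (adjusted p = 0.217). The same scaling turned *Ly6c2* to -1.01 and *Ly6i* to -0.72. At that scaling edgeR called 9220 genes, 58 (0.556% of all tested) higher and 9162 (87.8%) lower. It called 0 members higher and 6 lower, 0 other Ly6/uPAR genes higher and 5 lower, and 0 GPI genes higher and 20 lower. The 3 counts of 0 were also 0 at an unadjusted p under 0.05, and no other tool was run at this scaling. With totals without haemoglobin genes, 1460 genes (14.0%) were higher and 5120 (49.0%) lower. Beside these shares, 1 member was higher and 4 were lower, among them *Ly6e* (-0.72, edgeR adjusted p = 3.13e-05), and 1 GPI gene was higher and 12 lower. GPI genes numbered 1 higher and 8 lower with library totals, beside 18.4% and 39.7% of all genes. With limma on log2(FPKM + 1) 8 were lower, beside 40.7% of all genes. With limma on log2(FPKM + 0.1) 1 was higher and 8 lower, beside 18.9% and 39.7%. Without a filter, or with edgeR's own filter, 2 other Ly6/uPAR genes were lower, and without a filter *Lynx1* was at -3.27 (adjusted p = 0.0105). With a mean FPKM of at least 5, which leaves fewer genes, 3637 were called, 1768 (33.2% of those tested) higher and 1869 (35.1%) lower. At that filter 0 other Ly6/uPAR genes and 2 GPI genes were lower, *Ly6k* was not tested, and *Ly6c1* could not be tested.

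Across fits without 1 library, 4679 to 5457 genes were called, with 23.2% to 25.2% of the tested genes higher and 22.2% to 26.4% lower. Beside these shares, 3 members were higher and 2 to 4 lower, and 1 to 2 other Ly6/uPAR genes were lower. *Ly6c1* was not called in 4 of these 6 fits, nor without a filter (adjusted p = 0.114) or with edgeR's filter (0.0641), and its log2 fold change ranged from -2.90 to -0.91 over the alternatives. *Ly6e* was called lower under 7 of 17 alternatives, among them limma on log2(FPKM + 1) (-0.49) and the fit without Ctrl replicate 1 (-0.24, adjusted p = 0.0424). The log2 ratio of *Ly6g* to *Itgam* changed by -0.42 to 0.077 without 1 library, the latter without Ctrl replicate 2. The cause of these changes was not tested.

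With a replicate block, 5546 genes were called (2724 higher, 2822 lower) and the members remained at 3 higher and 3 lower. Same-numbered libraries came from different mice, and their deviations correlated by 0.0212, 0.0562 and 0.0364, all under 0.1, so the numbers were not taken to pair the samples. Within such pairs, the smallest p for a ratio is 0.25. Depth was not limiting for the members, the lowest count being 141 reads for *Ly6c1*, but counting error does not cover PCR copies.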
